A study of Homo sapiens with 12 samples.

Results

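WT1, TBX18, TCF21 and BNC1 are 4 transcription factor genes that mark the epicardium, the mesothelial layer that covers the heart. They were taken by gene symbol from the per-library FPKM files (FPKM is a read level scaled to transcript length and library size), and all 4 are present among the 20042 genes listed, of which 19040 hold a value. The cells were H9, a human embryonic stem cell line, differentiated toward heart cells and collected at day 8 or day 12. From day 0 on, the medium of the treated cultures held F-53B or PFOS at 60 µM, and the comparison cultures are labelled DMSO. Both compounds are fluorinated sulfonate surfactants, F-53B being a chlorinated polyfluoroalkyl ether sulfonate used in metal plating in place of PFOS. The 6 groups (day 8 and day 12, each with DMSO, F-53B and PFOS) hold 2 bulk RNA-seq libraries apiece, all of 1 cell line. The labels number the libraries 1 and 2 and name no separate cultures. A p-value here therefore reflects the spread between these samples alone, and that spread may be technical.

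The epicardium forms from the proepicardium, a cluster of mesothelial cells near the venous pole of the embryonic heart. WT1 is a zinc finger protein needed for the epicardium, the kidney and the gonad, TBX18 is a T-box protein of the epicardium and the sinus horn, and TCF21 is a basic helix-loop-helix protein that acts in the epicardium and in the cardiac fibroblasts derived from it. BNC1 is a zinc finger protein of mesothelium and of stratified epithelium. In pluripotent cell cultures, cardiomyocytes and epicardial cells arise from related mesodermal progenitors, and WNT, BMP and retinoic acid signals are used to steer the cultures between them.

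In GRCh38 (GENCODE 29), WT1 (gene ID 7490) lies on the minus strand of chromosome 11 from 32387775 to 32435630. TBX18 (9096) lies on the minus strand of chromosome 6 from 84687351 to 84764519, and TCF21 (6943) on the plus strand of the same chromosome from 133889138 to 133895553. BNC1 (646) lies on the minus strand of chromosome 15 from 83255903 to 83284714. All 4 are protein-coding. Each overlaps an annotated antisense or divergent transcript, and whether the counting used strand is not given in the sources used here, so reads of a gene and of its overlapping partner cannot be told apart.

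The proximal upstream sequences are shown because the 4 genes rose together with F-53B, and so that their base composition and simple motifs can be compared. Each stretch is 150 bases on the gene's own strand, from 250 to 101 bases before the farthest-upstream RefSeq start (GRCh38.p14). The windows are chr11:32435640-32435789 for WT1, chr6:84764699-84764848 for TBX18, chr6:133888863-133889012 for TCF21 and chr15:83284765-83284914 for BNC1. Capitals mark the E-box (CANNTG) and the GC-box (GGGCGG, read on both strands).
WT1: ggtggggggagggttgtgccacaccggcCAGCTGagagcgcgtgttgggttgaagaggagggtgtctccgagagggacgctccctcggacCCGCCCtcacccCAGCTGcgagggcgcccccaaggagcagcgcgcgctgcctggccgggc
TBX18: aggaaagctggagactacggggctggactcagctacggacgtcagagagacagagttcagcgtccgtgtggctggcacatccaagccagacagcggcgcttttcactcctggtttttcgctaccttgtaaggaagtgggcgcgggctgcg
TCF21: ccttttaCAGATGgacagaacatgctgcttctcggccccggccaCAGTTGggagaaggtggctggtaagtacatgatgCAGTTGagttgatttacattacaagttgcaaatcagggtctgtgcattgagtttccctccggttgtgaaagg
BNC1: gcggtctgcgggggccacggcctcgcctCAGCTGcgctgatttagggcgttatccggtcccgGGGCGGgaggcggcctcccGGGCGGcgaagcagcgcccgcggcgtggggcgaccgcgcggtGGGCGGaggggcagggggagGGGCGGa
The GC content of these windows was 73.3% for WT1, 59.3% for TBX18, 48.7% for TCF21 and 80% for BNC1, against a median of 56% over 27305 RefSeq windows of the same length and place. The BNC1 window held 23 CpG pairs and the WT1 window 13, whereas the TCF21 window held 3 (median of all windows 5). An E-box was found 2 times in WT1, 3 times in TCF21, once in BNC1 and nowhere in TBX18, and 45.7% of all windows hold at least 1. The GC-box occurred 4 times in BNC1 and once in WT1, against a share of 25.3% of all windows with a match. A GATA motif (GATAA, either strand, in 14.5% of all windows) was matched in BNC1 alone of the 4. The T-box motif TCACACC (1.77% of all windows), the TCF/LEF motif CTTTGA (7.5%), the TEAD motif CATTCC (7.49%) and the TATA motif TATAAA (6.41%), each searched on both strands, had no match in the 4 windows. These matches describe letters in 1 window per gene and say nothing of binding.

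Summed FPKM per library ran from 389249 to 439918, and the depth in reads is unknown. Of the genes with a value, 14080 reached 1 FPKM in at least 2 libraries and were tested with limma on log2(FPKM + 1), with p-values adjusted over all of them and a threshold of 0.05. The 4 factors passed this filter in every group, since their lowest value in any library was 4.06 FPKM. Other defining genes of epicardium did not follow them everywhere. UPK3B, a mesothelial membrane protein, read between 14.63 and 123.95 FPKM in the day 8 libraries. ALDH1A2, the retinaldehyde dehydrogenase of the epicardium, lay between 0.22 and 0.58 FPKM there, and ITGA4, an epicardial integrin, between 0.01 and 0.08. At day 8, high WT1, TBX18 and BNC1 therefore came without ALDH1A2 and ITGA4, in DMSO and treated libraries alike. Other epicardial markers were present: KRT19, a keratin, lay between 342.76 and 437.45 FPKM at day 8, and LRRN4, a membrane protein, between 48.42 and 137.97.

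WT1 read 42.49 and 31.55 FPKM in the day 8 DMSO libraries, 69.2 and 54.68 under PFOS and 116.15 and 122.73 under F-53B. The day 12 libraries gave 4.06 and 4.65 FPKM for DMSO, 19.44 and 20.82 for PFOS, and 77.55 and 102.71 for F-53B. The order from high to low was day 8 F-53B (119.4 ± 4.65 FPKM, mean and SD, n = 2 here and below), day 12 F-53B (90.1 ± 17.8), day 8 PFOS (61.9 ± 10.3), day 8 DMSO (37.0 ± 7.74), day 12 PFOS (20.1 ± 0.976) and day 12 DMSO (4.36 ± 0.417). No neighbours in this order had overlapping libraries. With 2 libraries a group such a separation is weak, and its share over all genes was not counted, here or below. Among the 19040 genes with a value, WT1 ranked between 416 and 456 in the day 8 F-53B libraries and between 9952 and 10313 in the day 12 DMSO libraries.

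TBX18 read 41.69 and 22.97 FPKM in the day 8 DMSO libraries, 83.7 and 59.08 under PFOS and 116.92 and 116.98 under F-53B. The day 12 values were 13.72 and 15.53 FPKM for DMSO, 42.96 and 50.35 for PFOS, and 138.23 and 149.32 for F-53B. Its order was led by day 12 F-53B (143.8 ± 7.84 FPKM) and day 8 F-53B (117 ± 0.0424), followed by day 8 PFOS (71.4 ± 17.4), day 12 PFOS (46.7 ± 5.23), day 8 DMSO (32.3 ± 13.2) and day 12 DMSO (14.6 ± 1.28). The day 8 DMSO libraries differed from each other 1.81-fold, the widest gap within a group for any of the 4 factors, and the higher of them lay just under the lower day 12 PFOS library.

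TCF21 was the lowest of the 4 at day 8, with 10.24 and 8.82 FPKM in DMSO, 21.94 and 17.04 in PFOS, and 29.94 and 31.05 in F-53B. At day 12 the values were 12.08 and 12.39 FPKM in DMSO, 29.04 and 35.6 in PFOS, and 64.04 and 47.78 in F-53B. Day 12 F-53B stood highest (55.9 ± 11.5 FPKM). Day 12 PFOS (32.3 ± 4.64) and day 8 F-53B (30.5 ± 0.785) overlapped and did not differ beyond their spread. Then came day 8 PFOS (19.5 ± 3.46), day 12 DMSO (12.2 ± 0.219) and day 8 DMSO (9.53 ± 1.0), each apart from its neighbours. The TCF21 order placed each treatment higher at day 12 than at day 8, unlike that of WT1.

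BNC1 read 42.95 and 31.69 FPKM in the day 8 DMSO libraries, 59.72 and 44.86 under PFOS and 135.23 and 143.7 under F-53B. Its day 12 values were 6.51 and 6.83 FPKM for DMSO, 25.49 and 24.11 for PFOS, and 106.03 and 155.51 for F-53B. The 2 F-53B groups, with 139.5 ± 5.99 FPKM at day 8 and 130.8 ± 35.0 at day 12, overlapped at the top. Below them lay day 8 PFOS (52.3 ± 10.5), day 8 DMSO (37.3 ± 7.96), day 12 PFOS (24.8 ± 0.976) and day 12 DMSO (6.67 ± 0.226), with no overlap between neighbours. These are levels per transcript length, so BNC1, TBX18 and WT1 can be set side by side: in day 8 DMSO they stood at 32 to 37 FPKM, and in day 12 DMSO TBX18 exceeded both others.

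From day 8 to day 12 in DMSO, 3 of the 4 factors fell. The log2 change of WT1 was -2.82 (SE 0.16, adjusted p = 8.87e-07), that of BNC1 was -2.31 (SE 0.19, adjusted p = 1.43e-05) and that of TBX18 was -1.04 (SE 0.25, adjusted p = 0.0116). TCF21 did not pass, with a change of 0.33 (SE 0.15, adjusted p = 0.106). Over all tested genes, 18.2% were lower and 19.5% higher at day 12. With only these 4 libraries in the fit, TBX18 missed the threshold (adjusted p = 0.0787) and TCF21 passed it (0.0179), and without day 12 DMSO replicate 1 TBX18 missed it too (0.0671).

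With F-53B, all 4 factors rose against DMSO at day 8. Mean FPKM was 3.23-fold higher for WT1, 3.62-fold for TBX18, 3.2-fold for TCF21 and 3.74-fold for BNC1. On the log2 scale of FPKM + 1 the changes were 1.68 for WT1 (SE 0.16, adjusted p = 3.42e-05), 1.88 for TBX18 (SE 0.25, adjusted p = 0.000448), 1.58 for TCF21 (SE 0.15, adjusted p = 2.53e-05) and 1.89 for BNC1 (SE 0.19, adjusted p = 6.06e-05). F-53B at day 8 raised 23.5% and lowered 20.5% of all tested genes at this threshold, so passing it was common. By size of the rise, the 4 factors ranked 57 (TBX18), 56 (BNC1), 96 (WT1) and 112 (TCF21) of 14080. In bulk libraries, more cells of a type and more RNA per cell cannot be told apart, and the same holds for every fall.

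At day 12 the rises with F-53B were larger and unequal. WT1 was 20.7-fold and BNC1 19.6-fold higher in mean FPKM, TBX18 9.83-fold and TCF21 4.57-fold. The log2 changes were 4.08 for WT1 (SE 0.16, adjusted p = 4.84e-08), 4.08 for BNC1 (SE 0.19, adjusted p = 1.74e-07), 3.21 for TBX18 (SE 0.25, adjusted p = 9.59e-06) and 2.09 for TCF21 (SE 0.15, adjusted p = 9.88e-07). In this comparison 28.2% of all tested genes were higher and 28% lower. WT1 and BNC1 ranked 9 and 10 of 14080 by the size of their rise, TBX18 ranked 40 and TCF21 ranked 189.

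The growth of the F-53B effect between the days was tested directly as the difference of the log2 changes. It was 2.40 for WT1 (SE 0.23, adjusted p = 0.000103), 2.19 for BNC1 (SE 0.27, adjusted p = 0.000611) and 1.33 for TBX18 (SE 0.35, adjusted p = 0.0354). For TCF21 it was 0.51 (SE 0.21, adjusted p = 0.134), which did not pass. Over all genes, 9.35% had a larger and 7.02% a smaller F-53B effect at day 12. The TBX18 call was lost without either day 12 DMSO library, either day 12 F-53B library or either day 8 F-53B library (adjusted p from 0.0507 to 0.108) and when FPKM were scaled to equal totals (0.0508). TCF21 passed without day 12 F-53B replicate 2 (0.71, adjusted p = 0.0321).

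Under F-53B itself, WT1 (-0.42, SE 0.16, adjusted p = 0.0798), TBX18 (0.29, SE 0.25, adjusted p = 0.419) and BNC1 (-0.12, SE 0.19, adjusted p = 0.691) did not pass between day 8 and day 12. TCF21 did pass, with a log2 change of 0.84 (SE 0.15, adjusted p = 0.00165). In that comparison 16% of all tested genes were higher and 14% lower. BNC1 changed sign without day 12 F-53B replicate 1, to 0.16, and was not called either way; its 2 day 12 F-53B libraries stood at 106.03 and 155.51 FPKM. WT1 passed without day 12 F-53B replicate 2 (-0.62, adjusted p = 0.0199), and TBX18 in a fit of the 4 libraries alone (adjusted p = 0.0348).

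PFOS was tested against the same DMSO libraries. At day 8, 3 of the 4 factors were called higher, beside 3.69% of all tested genes higher and 3.08% lower. TBX18 was 2.21-fold higher in mean FPKM (log2 change 1.16, SE 0.25, adjusted p = 0.0293), TCF21 2.05-fold (0.95, SE 0.15, adjusted p = 0.00491) and WT1 1.67-fold (0.73, SE 0.16, adjusted p = 0.0247). BNC1 was 1.4-fold higher and did not pass (0.48, SE 0.19, adjusted p = 0.173). All 3 calls were lost without day 8 DMSO replicate 2 (adjusted p = 0.194 for WT1, 0.0883 for TBX18 and 0.0647 for TCF21) and without day 8 PFOS replicate 1 (0.204, 0.203 and 0.0565). In a fit of those 4 libraries alone, TCF21 was the only factor called, WT1 standing at 0.0903 and TBX18 at 0.217.

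At day 12 with PFOS, all 4 factors rose against DMSO, in a comparison where 6.67% of all tested genes were higher and 5.62% lower. Mean FPKM was 4.62-fold higher for WT1, 3.72-fold for BNC1, 3.19-fold for TBX18 and 2.64-fold for TCF21. The log2 changes were 1.98 for WT1 (SE 0.16, adjusted p = 6.43e-05), 1.75 for BNC1 (SE 0.19, adjusted p = 0.000487), 1.61 for TBX18 (SE 0.25, adjusted p = 0.00467) and 1.33 for TCF21 (SE 0.15, adjusted p = 0.000382). WT1 had the rise of rank 5 among the 14080 genes, BNC1 rank 16, TBX18 rank 20 and TCF21 rank 42. No single library left out ended a call on the 4 factors in the day 12 comparisons with DMSO, for either compound.

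Between the days in PFOS, WT1 fell by 1.57 (SE 0.16, adjusted p = 4.93e-05) and BNC1 fell by 1.03 (SE 0.19, adjusted p = 0.00219), while TCF21 rose by 0.70 (SE 0.15, adjusted p = 0.0037). The value for TBX18 was -0.59 (SE 0.25, adjusted p = 0.0965, and 0.0248 in a fit of the 4 libraries alone). Of all tested genes, 19.7% were higher and 19.6% lower. The difference of the PFOS effect between days passed for WT1 only, at 1.25 (SE 0.23, adjusted p = 0.0293), where 0.611% of all genes had a larger and 0.795% a smaller effect at day 12. BNC1, with a nearly equal difference of 1.27 (SE 0.27), missed the threshold at an adjusted p of 0.0557. TBX18 (0.45, SE 0.35, adjusted p = 0.58) and TCF21 (0.37, SE 0.21, adjusted p = 0.425) did not pass. The WT1 call was lost without either day 12 DMSO library, either day 12 PFOS library, day 8 DMSO replicate 1 or day 8 PFOS replicate 2 (adjusted p from 0.0626 to 0.121). BNC1 passed without day 8 DMSO replicate 2 (1.49, adjusted p = 0.0491).

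F-53B and PFOS were given at the same dose and can be compared at each day. At day 8, BNC1 was 1.41 higher on the log2 scale with F-53B than with PFOS (95% interval 0.982 to 1.84, adjusted p = 0.00128), WT1 0.95 (0.584 to 1.31, adjusted p = 0.00291) and TCF21 0.63 (0.299 to 0.961, adjusted p = 0.0114). TBX18 was 0.73 higher (0.154 to 1.30) with an adjusted p of 0.0603, so no difference was called, and the interval leaves room for one of up to 1.30. It was called without day 8 PFOS replicate 1 (0.97, adjusted p = 0.0381), in a fit of the 4 libraries alone (0.0156) and without the robust and trend settings (0.0446). Among all tested genes 13.3% were higher and 15% lower with F-53B. The TCF21 call was lost without day 8 F-53B replicate 1 (adjusted p = 0.0506), without day 8 F-53B replicate 2 (0.0755) and without day 8 PFOS replicate 2 (0.117).

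At day 12 all 4 factors were higher with F-53B than with PFOS, in a comparison where 23.9% of all genes were higher and 24% lower. The difference was 2.33 for BNC1 (95% interval 1.90 to 2.76, adjusted p = 1.61e-05), 2.10 for WT1 (1.73 to 2.46, adjusted p = 8.79e-06), 1.61 for TBX18 (1.04 to 2.18, adjusted p = 0.000875) and 0.76 for TCF21 (0.433 to 1.10, adjusted p = 0.00167). The intervals are not corrected for the number of genes. The 2 compounds were compared for 4 genes at 2 days, each p being adjusted over all 14080 genes. Comparisons of F-53B and of PFOS with DMSO share the DMSO libraries of their day, so their changes are set side by side here and not counted as separate evidence.

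The mix of the 4 factors shifted between the days under every treatment. TCF21 made up 7.45% and 9.28% of their summed FPKM in the day 8 DMSO libraries and 33.2% and 31.4% in the day 12 DMSO libraries. With PFOS its share was 9.35% and 9.7% at day 8 and 24.8% and 27.2% at day 12, and with F-53B 7.52% and 7.49% at day 8 and 16.6% and 10.5% at day 12. WT1 went the other way, from between 29.2% and 33.2% in all day 8 libraries to between 11.2% and 22.6% at day 12. The lowest TCF21 share at day 12 exceeded the highest at day 8.

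Ratios between pairs of the factors restate this shift pair by pair and are given as a description, with no test. The log2 ratio of WT1 to TCF21 dropped by 3.44 in DMSO, by 2.35 in PFOS and by 1.28 in F-53B. That of TBX18 to BNC1 rose by 1.38, 0.47 and 0.42 in the same order. The ratio of WT1 to BNC1 moved least, by -0.49 on average over the treatments. Since every ratio is taken within a library, a common scaling of that library does not enter it.

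**Figure D1:**
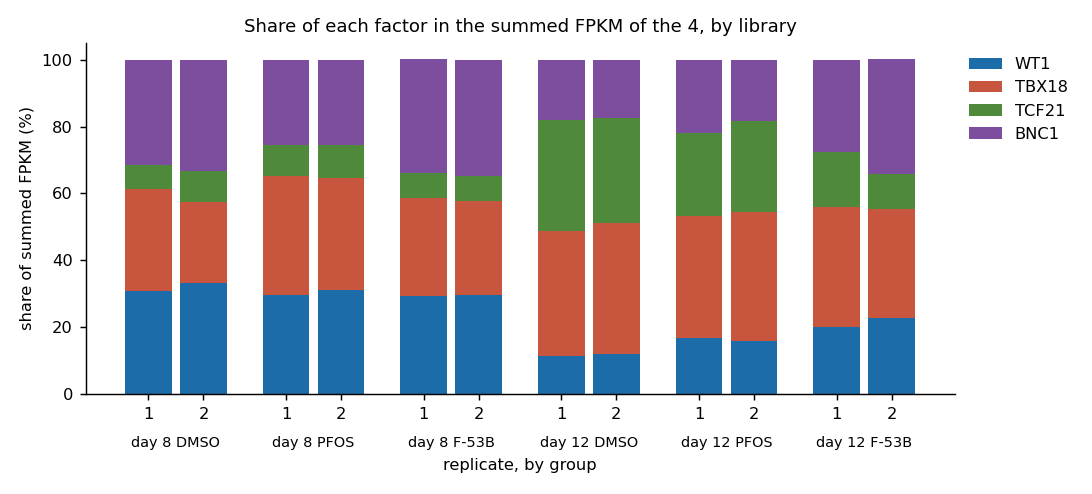
Share of each factor in the summed FPKM of the 4 (bars add to 100%), for each library by day and treatment. The TCF21 part is 7.45% to 9.7% of the sum at day 8 and 10.5% to 33.2% at day 12, widest in the DMSO libraries.

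With F-53B, transcripts of cardiomyocytes fell while the 4 factors rose. The 12 cardiomyocyte markers (TNNT2, MYH6, NKX2-5 and others) held 1.67% and 2.17% of all FPKM in the day 8 DMSO libraries, 0.953% and 1.44% under PFOS, and 0.329% and 0.321% under F-53B. Their share at day 12 was 2.93% and 2.91% in DMSO, 2.62% and 2.38% in PFOS, and 0.708% and 0.325% in F-53B. All 12 fell with F-53B on both days, beside 20.5% of all tested genes lower at day 8 and 28% at day 12. With PFOS 0 of 12 passed at day 8 and 1 fell at day 12, beside 3.08% and 5.62% of all tested genes lower. Their median log2 change with PFOS was -0.63 at day 8 and -0.34 at day 12. Summed FPKM of the 4 factors was 137.4 and 95.03 in DMSO, 234.6 and 175.7 in PFOS and 398.2 and 414.5 in F-53B at day 8. At day 12 the sums were 36.4 and 39.4 in DMSO, 116.9 and 130.9 in PFOS, and 385.9 and 455.3 in F-53B. Within each group of 2, the library with the lower cardiomyocyte share had the higher sum of the 4 factors, in 6 of 6 groups. This did not hold for every factor singly. In day 12 F-53B, TCF21 read 64.04 FPKM in the library with a share of 0.708% and 47.78 in that with 0.325%. In day 12 PFOS, BNC1 read 25.49 FPKM in the library with 2.62% and 24.11 in that with 2.38%. The shares were nearly equal in day 12 DMSO (2.93% and 2.91%) and in day 8 F-53B (0.329% and 0.321%). How often other genes run opposite in this way was not counted. The part of this shift in the cardiomyocyte transcripts in the results on the 4 factors was not tested.

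**Figure D2:**
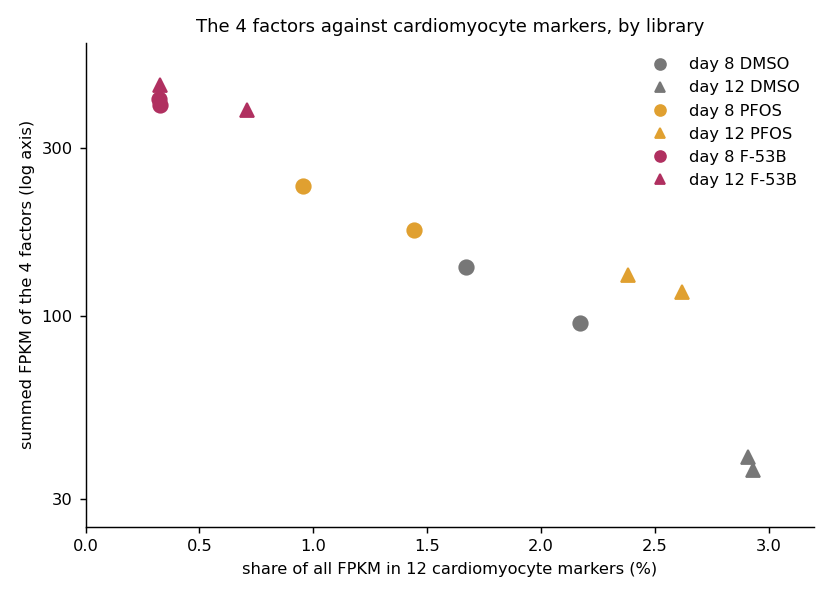
Summed FPKM of WT1, TBX18, TCF21 and BNC1 (log axis) against the share of all FPKM in 12 cardiomyocyte markers, 1 point per library. The 4 F-53B libraries lie at the upper left (sums of 385.9 to 455.3) and the day 12 DMSO libraries at the lower right (36.4 and 39.4).

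Each of the 4 genes is also expressed in other embryonic tissues, and markers of those were read beside them. Their counts stand against 23.5% of all tested genes higher and 20.5% lower with F-53B at day 8, 28.2% and 28% at day 12, and 3.69% and 3.08%, then 6.67% and 5.62%, with PFOS. Kidney is marked by PAX2 and PAX8, which stayed at or below 0.17 FPKM in every library, and the summed 10 kidney markers lay between 11.2 and 27.9 FPKM; of the 4 tested, 2 were higher and 1 lower at day 8 with F-53B, 3 and 1 at day 12, and 1 and 1 with PFOS on each day. For gonadal cells, NR5A1 was at or below 0.23 FPKM and FOXL2 at or below 0.06, while GATA4, shared with heart, and AMHR2 carried most of the summed 117.0 to 255.7 FPKM of the 8 markers; of the 5 tested, 4 rose with F-53B on each day, and with PFOS 0 passed at day 8 and 1 rose at day 12. Stratified epithelium, where BNC1 is also used, showed 6 markers summing to 0.34 to 1.23 FPKM with none reaching the filter. Paraxial mesoderm, where TBX18 is also used, had 9 markers summing to 2.5 to 4.95 FPKM; of the 2 tested, MEOX1 rose and TBX6 fell with F-53B on each day, and 0 passed with PFOS. The 6 sinus venosus and pacemaker markers summed to 53.5 to 60.4 FPKM at day 8, and at day 12 to 64.2 to 68.0 in DMSO, 81.7 to 89.7 in PFOS and 84.6 to 93.7 in F-53B. Of these 6, 3 rose and 2 fell at day 12 with F-53B and 3 rose and 1 fell with PFOS, against 2 and 2 and 0 and 1 at day 8. HCN4 was the highest of the 6 in every library, so the sum mostly follows it. ISL1 went from 13.32 and 14.99 FPKM in day 8 DMSO to 3.16 and 2.24 with F-53B (-2.04, adjusted p = 0.000116). SHOX2 read 0.02 and 0.07 FPKM in day 12 DMSO and 3.76 and 3.13 with F-53B (2.085, adjusted p = 1.19e-07). With PFOS it rose by 0.75 at day 12 (adjusted p = 0.00166). The part of these transcripts in the results on the 4 factors was not tested.

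Hepatic and endoderm transcripts also differed between the groups, and the counts in this paragraph stand against the same shares of all tested genes as above. The 7 markers summed to 466.7 to 645.6 FPKM in day 12 DMSO, 178.6 to 258.5 with PFOS and 13.9 to 27.3 with F-53B, and to 54.9 to 98.9, 41.8 to 52.9 and 29.9 to 33.8 at day 8. Of the 6 tested, 4 fell and 1 rose at day 8 and 6 fell at day 12 with F-53B, while 1 and 3 fell with PFOS. Those of endothelium (7 markers) summed to 46.9 to 48.7 FPKM in day 12 DMSO, 35.0 to 39.9 with PFOS and 27.4 to 31.9 with F-53B; at day 8 the ranges were 70.2 to 83.8, 61.5 to 62.1 and 63.6 to 65.8. Of its 6 tested markers, 4 fell at day 8 and 5 fell and 1 rose at day 12 with F-53B, and with PFOS 3 fell at day 8 and 1 at day 12. CDH5, the endothelial cadherin, read 3.2 and 4.63 FPKM in day 8 DMSO and 0.16 in both F-53B libraries (-2.07, adjusted p = 1.26e-05). KDR, the highest of these markers, did not pass at day 8 with F-53B (-0.09, adjusted p = 0.506). The marker that rose at day 12 with F-53B was TEK (0.80, adjusted p = 0.000377). The 6 pluripotency markers summed to 118.0 to 130.2 FPKM per library at day 8 in all groups. At day 12 their sums were 32.6 to 36.8 in DMSO and PFOS and 64.5 to 64.6 with F-53B. Of the 5 tested, 2 rose and 0 fell with F-53B on each day, and 1 rose and 0 fell with PFOS on each day. At day 12 with F-53B, DPPA4 (1.59, adjusted p = 1.28e-07) and ZFP42 (1.37, adjusted p = 7.76e-07) rose, while POU5F1, NANOG and LIN28A did not pass. The part of the hepatic, endothelial and pluripotency transcripts in the results on the 4 factors was not tested.

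Other transcription factors of the heart field and epicardium moved less uniformly. Of 18 listed, 17 were tested: with F-53B 7 rose and 2 fell at day 8 (median log2 change 0.08, against 0.02 over all tested genes), and 10 rose and 1 fell at day 12 (0.38, against 0.00 over all genes). Beside these counts stand 23.5% of all tested genes higher and 20.5% lower at day 8, and 28.2% and 28% at day 12. NR2F2, a nuclear receptor of atrial and venous cells, read 6.05 and 4.38 FPKM in day 8 DMSO and 16.59 and 18.86 with F-53B, and 2.57 and 2.12 against 14.64 and 17.73 at day 12. Its rises were 1.60 (SE 0.16) and 2.36, with adjusted p = 2.86e-05 and 5.25e-07. BNC2, the closest relative of BNC1, rose by 1.60 (SE 0.24, adjusted p = 0.000552) at day 8 and by 3.12 (adjusted p = 3.38e-06) at day 12, from 0.27 and 0.43 FPKM to 8.26 and 13.78 on the latter day. HEY2 rose by 0.87 at day 8 (adjusted p = 5.56e-05), and HOXB6 by 1.55 and GATA4 by 0.78 at day 12 (adjusted p = 0.000128 and 1.74e-05).

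With PFOS, 4 of these 17 rose and 0 fell at day 8 (median 0.22, all genes 0.03), and 4 rose and 1 fell at day 12 (0.25, all genes 0.02). The shares of all tested genes were 3.69% higher and 3.08% lower at day 8, and 6.67% and 5.62% at day 12. The 4 at day 8 were HAND2 (0.40, adjusted p = 0.00416), TBX5 (0.33, adjusted p = 0.0143), NR2F2 (0.70, adjusted p = 0.0247) and HOXB6 (0.89, adjusted p = 0.0347), and 0 of 17 were called without day 8 DMSO replicate 2 or without day 8 PFOS replicate 1. At day 12 NR2F2 rose by 1.19 (adjusted p = 0.00087), TBX5 by 0.43 (adjusted p = 0.00199), HAND2 by 0.39 (adjusted p = 0.00257) and BNC2 by 1.28 (adjusted p = 0.00842, lost without day 12 DMSO replicate 1 and without day 12 PFOS replicate 1, the higher value being 0.0769). The gene that fell was YAP1 (-0.26, adjusted p = 0.041), named after its value was seen. That call was lost without either day 12 DMSO library, without day 12 PFOS replicate 1 and in 4 further alternatives (adjusted p up to 0.231).

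Among 17 close relatives of the 4 factors, 7 were tested, 9 were under the filter and MSC, a relative of TCF21, held no value. T-box genes went in both directions. TBX20, a cardiac T-box gene, read 79.18 and 69.54 FPKM in day 8 DMSO against 18.8 and 17.97 with F-53B, and 109.72 and 110.19 against 47.33 and 23.91 at day 12. It fell by 1.96 (SE 0.26, adjusted p = 0.000508) and by 1.68 (adjusted p = 0.000679). TBX3 fell by 1.63 (adjusted p = 0.000113) and 1.80 (adjusted p = 2.13e-05) with F-53B, and with PFOS by 0.91 (adjusted p = 0.0224) and 1.13 (adjusted p = 0.00467), from at most 6.26 FPKM. The TBX3 calls with PFOS were lost without day 8 DMSO replicate 2 or day 8 PFOS replicate 1 (up to 0.183) and without day 12 DMSO replicate 1 (0.0521). TBX2 fell by 1.56 at day 8 with F-53B (adjusted p = 0.00892, and 0.059 without day 8 F-53B replicate 2). EGR1, a zinc finger relative of WT1, rose by 1.52 at day 12 with F-53B (adjusted p = 2.43e-05).

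In counts, the relatives gave 2 of 7 higher and 3 lower at day 8 with F-53B (median -0.09), beside 23.5% and 20.5% of all tested genes, so that the share of higher genes was near that background. At day 12 they gave 4 higher and 3 lower (0.38), beside 28.2% and 28%. With PFOS they gave 1 higher and 1 lower at day 8 (0.15) and 3 higher and 1 lower at day 12 (0.43), among them TBX5 and BNC2 named above and SCX, a tendon and valve factor of the TCF21 class, at 0.78 (adjusted p = 0.0297, lost without any 1 of the day 12 DMSO and PFOS libraries, up to 0.229). The shares of all tested genes with PFOS were 3.69% higher and 3.08% lower at day 8, and 6.67% and 5.62% at day 12. TBX20 showed values of -0.10 (adjusted p = 0.86) and 0.01 (adjusted p = 0.992) with PFOS.

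**Figure D3:**
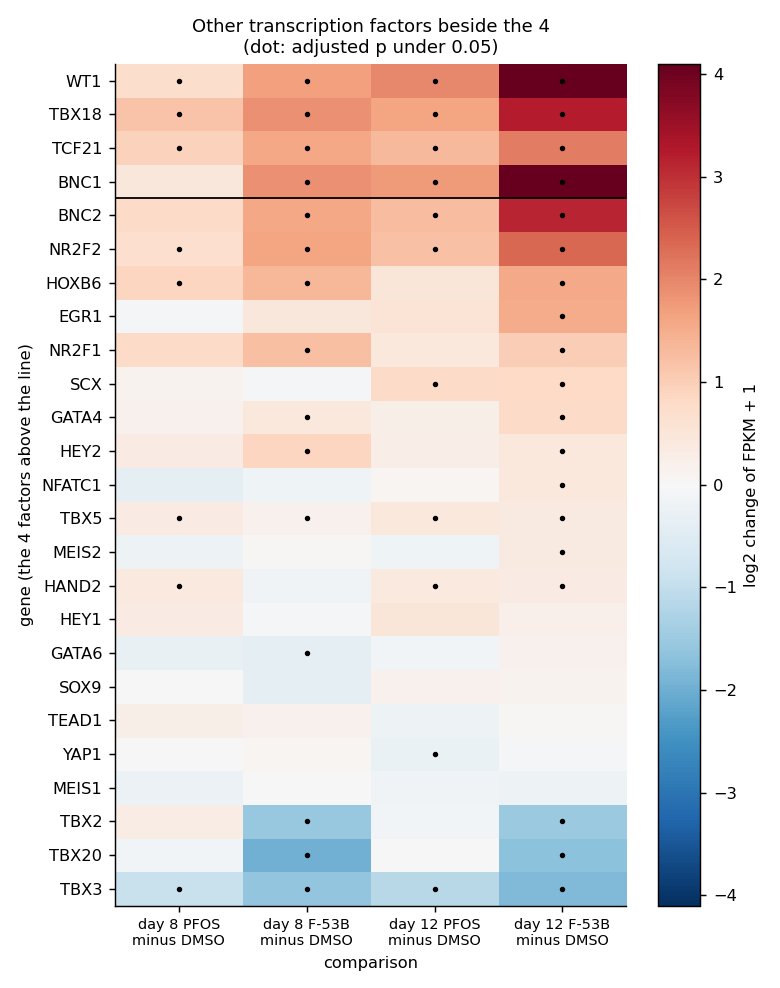
Log2 change of FPKM + 1 against DMSO for the 4 factors (above the line) and for the tested members of the lists of other heart field and epicardial transcription factors and of close relatives, sorted by the day 12 F-53B change. Dots mark an adjusted p under 0.05; TBX20 and TBX2 are blue with F-53B and near white with PFOS, and TBX3 is blue in all 4 columns.

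Of the surface, secreted and enzyme genes of epicardium and mesothelium, 17 were tested. With F-53B, 12 rose and 1 fell at day 8 (median 0.73, beside 23.5% and 20.5% of all tested genes), and 13 rose and 2 fell at day 12 (1.79, beside 28.2% and 28%). The genes that fell were ALDH1A1, a retinaldehyde dehydrogenase related to ALDH1A2, on both days (-0.76, adjusted p = 0.0355, and -2.49, adjusted p = 1.82e-05) and CLDN1 at day 12. The day 8 call of ALDH1A1 was lost in 4 alternative fits (up to 0.245). KRT19, a simple-epithelial keratin (0.12, adjusted p = 0.488), and CALB2, the mesothelial calcium-binding protein calretinin (0.03, adjusted p = 0.904), did not pass at day 12. UPK3B went from 17.5 and 14.63 FPKM to 101.46 and 123.95 at day 8 (2.73, SE 0.26, adjusted p = 9.65e-05) and from 4.11 and 3.92 to 148.71 and 238.69 at day 12 (5.24, adjusted p = 8.83e-07). ALDH1A2 did not pass at day 8 (0.20, adjusted p = 0.386), and at day 12 read 0.57 and 0.67 FPKM in DMSO and 27.84 and 45.04 with F-53B (4.49, SE 0.18, adjusted p = 3.15e-08). The matrix proteoglycans LUM and DCN rose by 3.04 and 3.26 at day 8 with F-53B (adjusted p = 0.000245 and 0.000158), and LRRN4, a mesothelial membrane protein, by 1.08 (adjusted p = 5.98e-05). UPK1B, a uroplakin, and SEMA3D, a secreted guidance protein of proepicardium, rose by 3.69 and 1.88 at day 12 (adjusted p = 1.1e-07 and 2.91e-07), and KRT18, a simple-epithelial keratin, by 1.25 (adjusted p = 3.57e-07). The list was written from textbook markers with earlier results of these data known.

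Under PFOS the same list gave 2 higher and 0 lower at day 8 (median 0.12, beside 3.69% and 3.08% of all tested genes). At day 12 it gave 7 higher and 2 lower (0.42, beside 6.67% and 5.62%). LUM (1.44, adjusted p = 0.041) and DCN (1.47, adjusted p = 0.0423) made up the day 8 count, and both calls were lost without any 1 of the 4 libraries compared (adjusted p up to 0.256). At day 12 ALDH1A2 rose by 1.26 (adjusted p = 0.00112), with 3.07 and 2.71 FPKM, UPK3B by 2.21 (adjusted p = 0.00135) and UPK1B by 1.26 (adjusted p = 0.00184). ALDH1A1 fell by 1.67 (adjusted p = 0.00259). CLDN1, a tight junction claudin, fell by 1.06 (adjusted p = 0.00037) and, with F-53B at day 12, by 1.64 (adjusted p = 9.58e-07), from 2.76 and 2.63 FPKM in DMSO.

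Of 20 genes that have been linked to WT1 as targets in other tissues or in the epicardium, 13 were tested. With F-53B, 6 rose and 4 fell at day 8 (median 0.29), and 9 rose and 3 fell at day 12 (1.25), beside the same shares of all tested genes (23.5% and 20.5%, then 28.2% and 28%). NPHS1, the slit diaphragm protein nephrin of podocytes, which is also among the kidney markers above, rose by 1.81 (SE 0.17, adjusted p = 2.11e-05) and 2.77 (adjusted p = 2.61e-07), reaching 10.34 and 15.07 FPKM. PODXL, podocalyxin, rose by 3.24 at day 12 (adjusted p = 5.73e-07) and ETS1, an endothelial and mesenchymal factor, by 1.51 (adjusted p = 5.58e-07). NTRK2, a neurotrophin receptor, rose by 0.96 at day 8 (adjusted p = 0.000102). BMPER, a modulator of BMP signals, fell by 1.14 (adjusted p = 2.26e-05) and SNAI1 fell by 0.85 (adjusted p = 0.000499) at day 8. SNAI1 is known as a driver of epithelial-mesenchymal transition that WT1 activates in epicardial cells, and CDH1, the E-cadherin that SNAI1 represses, was among the genes that rose (1.37 at day 8, adjusted p = 0.00889, and 0.0624 without day 8 F-53B replicate 2). The list thus holds genes that WT1 is known to raise and genes it is known to lower, and its count has no single direction to be read against.

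With PFOS, 3 of the 13 rose and 1 fell at day 8 (median 0.05), and 6 rose and 2 fell at day 12 (0.56). These counts stand beside 3.69% of all tested genes higher and 3.08% lower at day 8, and 6.67% and 5.62% at day 12. BMPER fell on both days, by 0.74 (SE 0.11, adjusted p = 0.00314) and by 0.80 (adjusted p = 0.000931), and its libraries separated by group, from 68.71 and 80.1 FPKM in day 8 DMSO to 39.57 and 48.67, and from 33.46 and 30.74 in day 12 DMSO to 17.05 and 18.92. ETS1 rose by 0.52 (adjusted p = 0.0141) and 0.73 (adjusted p = 0.00122), NPHS1 by 0.70 (adjusted p = 0.0331) and 1.17 (adjusted p = 0.00145), and NTRK2 by 0.54 at day 8 (adjusted p = 0.0219). Of the 4 calls at day 8, that of BMPER alone was kept in every alternative fit, and those of ETS1, NPHS1 and NTRK2 were lost without day 8 DMSO replicate 2 and without day 8 PFOS replicate 1 (adjusted p up to 0.269).

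Genes of epicardium-derived fibroblasts and mural cells went in both directions. All 17 were tested; with F-53B 8 rose and 5 fell at day 8 (median 0.25), where 23.5% of all tested genes rose and 20.5% fell, and 11 rose and 3 fell at day 12 (0.64), where the shares were 28.2% and 28%. The collagen chain COL1A2 rose by 1.24 at day 8 (SE 0.13, adjusted p = 3.79e-05) and 2.24 at day 12 (adjusted p = 1.91e-07), and the collagen receptor DDR2 by 0.98 and 2.25 (adjusted p = 0.000121 and 1.28e-07). COL3A1 rose by 2.54 (adjusted p = 4.11e-08) and the mural receptor PDGFRB by 1.89 (adjusted p = 4.41e-08) at day 12. ACTA2, the smooth muscle actin also found in early cardiomyocytes, read 487.93 and 639.44 FPKM in day 8 DMSO and 34.5 and 26.89 with F-53B, a fall of 4.15 (SE 0.23, adjusted p = 6.03e-06). MYH11, smooth muscle myosin, fell by 1.21 at day 8 (adjusted p = 2.26e-05) and rose by 0.86 at day 12 (adjusted p = 8.1e-05). On the latter day it read 1.33 and 1.13 FPKM in DMSO and 3.09 and 2.99 with F-53B. CNN1 fell at day 12 by 1.70 (adjusted p = 6.35e-06), from 130.4 and 138.65 FPKM in DMSO to 50.89 and 32.63. The other 2 that fell at day 12 were ACTA2 (-0.71, adjusted p = 0.0264) and ZEB1 (-0.32, adjusted p = 0.0279). These calls were lost in 3 and 5 alternative fits.

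PFOS raised 4 and lowered 2 of these 17 at day 8 (median 0.22) and raised 6 and lowered 2 at day 12 (0.34). Of all tested genes, 3.69% were higher and 3.08% lower at day 8, and 6.67% and 5.62% at day 12. At day 8 TAGLN, a smooth muscle actin-binding protein, fell by 0.83 (adjusted p = 0.00194) and ACTA2 fell by 1.11 (adjusted p = 0.0235), while DDR2 rose by 0.68 (adjusted p = 0.00966) and PDGFRB by 0.36 (adjusted p = 0.0269). At day 12 COL3A1 rose by 1.29 (adjusted p = 5.93e-05), PDGFRB by 0.93 (adjusted p = 6.43e-05), COL1A2 by 1.08 (adjusted p = 0.000462) and DDR2 by 0.90 (adjusted p = 0.001). At day 8, 5 of the 6 calls with PFOS were lost with 1 library left out, that of TAGLN being the exception; DDR2, ACTA2 and PDGFRB were lost without day 8 DMSO replicate 2 and without day 8 PFOS replicate 1 (adjusted p up to 0.242). No called gene of the 5 lists changed direction under either rescaling of the libraries.

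The genes whose levels followed each factor most closely over the 12 libraries were found among 9888 tested genes with a mean of at least 5 FPKM, by Pearson's r of log2(FPKM + 1). For WT1 they were MAB21L2 (0.995), TCEAL2 (0.993), SMOC2 (0.991), CD248 (0.990) and LRRN2 (0.990). For BNC1 they were MYRF (0.997), PTGS1 (0.995), SLITRK2 (0.993), STK10 (0.992) and FAM198A (0.991). MYRF, a membrane-bound transcription factor, read 139.69 and 115.14 FPKM in day 8 DMSO and 275.19 and 285.31 with F-53B, and 48.86 and 49.54 against 234.14 and 291.99 at day 12. SMOC2, a secreted matrix protein, read 4.38 and 4.96 FPKM in day 12 DMSO and 63.76 and 75.54 with F-53B.

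For TBX18 the closest were FLRT2 (0.992), DAAM2 (0.991), MAP1LC3A (0.988), ISLR (0.985) and CACNB3 (0.983). For TCF21 they were RASD1 (0.975), EFNA5 (0.969), C19orf43 (0.969), MATN2 (0.966) and BMP1 (0.965). MATN2, a matrilin of the extracellular matrix, read 11.25 and 8.73 FPKM in day 8 DMSO, 16.7 and 16.65 in day 12 DMSO and 44.75 and 43.38 in day 12 F-53B. It was picked for its likeness to TCF21 over these libraries, so its pattern is not separate evidence. Among the 4 factors themselves r was 0.984 for WT1 with BNC1, 0.949 for TBX18 with BNC1, 0.920 for WT1 with TBX18, 0.809 for TBX18 with TCF21, 0.632 for TCF21 with BNC1 and 0.539 for WT1 with TCF21. All points share the same 12 libraries and 6 groups, so r also takes in every difference between the groups. Over the 6 group means, 3 of the 5 genes were shared for WT1 and for BNC1, 2 for TBX18 and 0 for TCF21.

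The nearest gene on each side of the 4 factors was taken among annotated genes whose symbol the FPKM files also list. A gene lying between, without a matching symbol, was passed over. Of these 8 genes, 6 were tested in the comparisons with DMSO. RCN1, beside WT1, read 83.5 and 79.79 FPKM in day 8 DMSO and 100.87 and 95.88 with F-53B, and rose by 0.27 at day 8 (SE 0.07, adjusted p = 0.00714) and 0.46 at day 12 (adjusted p = 0.000124). EIF3M, on the other side of WT1, did not pass in the 4 comparisons with DMSO. CEP162, beside TBX18, rose by 0.69 at day 8 (SE 0.10, adjusted p = 0.000284) and by 0.53 at day 12 (adjusted p = 0.00091) with F-53B. Its libraries read 3.77 to 4.4 FPKM in DMSO and 6.1 to 7.19 with F-53B. SH3GL3, beside BNC1, rose by 0.49 at day 8 with F-53B (SE 0.08, adjusted p = 0.000407), with 0.01 at day 12 (adjusted p = 0.93). TM6SF1, beside BNC1, and TBPL1, beside TCF21, did not pass in any of the 4, and NT5E and EYA4 were under the filter. NT5E, beside TBX18, read 0.71 and 0.77 FPKM in day 12 DMSO and 0.03 and 0.04 with F-53B, and EYA4 stayed at or below 0.79 FPKM.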

How the data were processed

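Libraries of H9 cells were read on a BGISEQ-500 instrument. Per the file headers, the authors deposited 1 FPKM value for each gene of a library, rounded to 2 decimals. The submitters' processing notes list HISAT, Bowtie2, RSEM and GRCh38.p11, with no tool version or role. Lines of broken annotation text (8 to 10 per file) and 1002 genes without a value were left out. Depth in reads is unknown. Group-means models of log2(FPKM + 1) over all 12 libraries (6 residual degrees of freedom) were fitted by limma 3.58.1 (R 4.3.3), using robust moderation and a trend, for genes at 1 FPKM or more in at least 2 libraries. P-values are two-sided and Benjamini-Hochberg adjusted over 14080 genes in each of 11 comparisons, with a threshold of 0.05. A log2 change understates that of low genes. Folds compare mean FPKM. The code was tested on simulated data. The members and lists were chosen with earlier results of these data known. Named from each list were up to 4 genes with the smallest adjusted p in each comparison with DMSO. Any relative, other list gene or marker singled out beside them was chosen after its values were seen. Also named were, for each factor, the 5 most alike genes and the nearest listed gene on each side. Alternatives were pseudocounts of 0.1 and 0.5, 2 scalings, other filters and moderation, a replicate block, fits of only the libraries compared, and each library left out.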

Additional observations from a re-analysis of the deposited data

Results flagged for a closer look

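The effect of F-53B differed between day 8 and day 12, by a test of the difference itself, for 3 of the 4 factors. The difference of the log2 changes was 2.40 for WT1, 2.19 for BNC1 and 1.33 for TBX18, each larger at day 12. The TBX18 call was lost in 7 alternatives (adjusted p from 0.0507 to 0.108). The effect of PFOS differed in the same test for WT1, by 1.25, a call lost in 6 of the 8 fits that left out 1 library (adjusted p from 0.0626 to 0.121). BNC1, with a difference of 1.27, missed the threshold (adjusted p = 0.0557). Each rests on 8 libraries, 2 in each of 4 groups, and the 2 compounds share the DMSO libraries.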

How the results depend on the processing

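Of 604 values of the 4 factors recomputed under alternatives, 565 kept their direction and side of the threshold, 27 lost a call, 11 gained one and 1 reversed: BNC1 from day 8 to day 12 under F-53B was -0.12 in the full fit and -0.39 to 0.16 with a library left out (0.16 without day 12 F-53B replicate 1), called in none of these. The counts of called factors that moved by over 1.5 times in any alternative were the 3 given next. The other counts of 3 moved to between 2 and 4 (F-53B against PFOS at day 8), 2 and 3 (DMSO between days, and the difference of the F-53B effect between days) and 3 and 4 (PFOS between days). Day 8 PFOS against DMSO had 3, 1 with only the libraries compared, and 0 to 3 with a library left out (0 without day 8 DMSO replicate 2 and 0 without day 8 PFOS replicate 1). F-53B from day 8 to day 12 had 1, 2 with only the libraries compared, and 1 to 2 with a library left out. The difference of the PFOS effect between days had 1, 2 with a pseudocount of 0.1, 2 with only the libraries compared, and 0 to 2 with a library left out. With the replicate block it had 0 (WT1 at an adjusted p of 0.0526), and the block changed no other call of the 4 factors. Same-numbered libraries did not deviate together (r from -0.378 to 0.186 over 15 pairs of groups), so the numbers were not taken as pairs. Where an arm was left with 1 library, that library is assumed to vary like the other groups. The causes were not tested.

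Counts over all tested genes that moved by over 1.5 times did so with a library left out: 5308 to between 3355 and 3498 (DMSO between days), 4227 to 2491 (F-53B between days), 3991 to between 1191 and 2019 (F-53B against PFOS, day 8), 1730 to between 583 and 810 (PFOS against DMSO, day 12), 2306 to between 1326 and 1427 and 198 to between 59 and 339 (difference of the F-53B and the PFOS effect between days). For day 8 PFOS against DMSO, 953 became 437 with only the libraries compared, 170 without day 8 DMSO replicate 2 and 181 without day 8 PFOS replicate 1. In that comparison the lists fell too: other transcription factors from 4 to 2 with only the libraries compared and to 0 without either of these libraries, relatives from 2 to 0 in all 3, fibroblast and mural genes from 6 to 2, 1 and 1, WT1-linked genes from 4 to 1 without either library and 2 without day 8 DMSO replicate 1, and surface genes from 2 to 0 with equal totals, with the replicate block and without 3 single libraries. At day 12 with PFOS, relatives went from 4 to 1 and 2 and other transcription factors from 5 to 3; with F-53B at day 8, relatives went from 5 to 3. The 5 genes most like each factor were kept over a pseudocount of 0.1 as 3 (WT1), 4 (TBX18), 5 (TCF21) and 4 (BNC1).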
